A study of Mus musculus with 9 samples.

Results

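The 9 genes described here encode proteins of the primary (azurophil) granules of neutrophils and monocytes, or proteins made with them: the peroxidase Mpo, the serine proteases Elane, Prtn3, Ctsg, Prss57 and Gzmb, the protease inhibitor Cst7, the granule proteoglycan Srgn and the membrane protein Ms4a3. They were chosen by name, and their rows were found through Entrez gene identifiers among the 27179 genes of the deposited count table. All 9 were in the table. RNA was sequenced from HPC7, a mouse line of stem cell factor-dependent blood progenitors, after infection with an MSCV-IRES-GFP retrovirus that marks infected cells with green fluorescent protein. The 3 groups of 3 libraries carried the vector with no gene (empty vector), wild-type Snai1, or mutant Snai1 with alanine in place of the phenylalanine at residue 5. Per the labels, this change weakens the contact between Snai1, a zinc-finger repressor, and the histone demethylase Lsd1 (gene Kdm1a). All groups were infected, cultured with stem cell factor at 100 ng/ml, and sorted for fluorescence after 1 week, and RNA was extracted from the sorted cells in bulk. The labels do not say whether the 3 libraries of a group came from separate infections or cultures, so the p-values rest on a spread between libraries that could be technical alone.

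Primary granules are the first granules that a myeloid precursor makes, at the promyelocyte stage, and transcription of their proteins is largely switched off later in maturation. Myeloperoxidase turns hydrogen peroxide and chloride into hypochlorous acid, while neutrophil elastase, proteinase 3, cathepsin G and neutrophil serine protease 4 digest microbial and matrix proteins. These proteases are made as inactive precursors that cathepsin C trims, and they are packed on the negatively charged sugar chains of serglycin.

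Library totals ran from 18332451 to 20860314 counts, and 12484 genes had enough counts to be tested. Snai1 stood at 0.698 to 1.06 CPM (counts-per-million values on scaled library sizes) with the empty vector, at 425, 488 and 562 with wild-type Snai1, and at 415 to 493 with the mutant, vector-derived reads included. Kdm1a was at 193 to 208 CPM in all 9 libraries. For the progenitor label, 10 of 10 markers of blood progenitors were detected in each group, with summed levels of 8511 to 10159 CPM, most of it Kit and Cd34. With wild-type Snai1, 2 of the 10 were called higher and 5 lower, beside 25.2% and 24.3% of all tested genes. Flt3, a receptor gene of early progenitors, fell from 28.9 to 1.91 CPM, while Lmo2, also on this list, rose from 66.3 to 134 CPM. Means with the empty vector and wild-type Snai1 were 2137 and 3274 CPM for Cd34 and 3614 and 3389 CPM for Kit. A single library stood apart, the first of wild-type Snai1. Its log2 levels correlated at 0.980 and 0.983 with the other two of its group, against 0.993 to 0.996 for every other pair within a group. Results for wild-type Snai1 are therefore given with and without that library. Its Snai1 level was 425 CPM. In it, 3.60% of tested genes were more than 2-fold below the mean of the other two, and 1.69% more than 2-fold above.

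The granule genes did not move as a block with wild-type Snai1. Against the empty vector, Mpo, Prss57 and Cst7 fell and Ms4a3 rose, while Prtn3, Gzmb and Srgn did not pass the test. Elane and Ctsg, which had 0 counts in all 6 libraries without wild-type Snai1, were too low to enter the test. Of the 7 members tested, 1 was called higher, where 25.2% of all tested genes were called higher, and 3 were called lower, where 24.3% of all tested genes were. Without the first wild-type library, 8 members could be tested: Elane, Prtn3, Srgn and Ms4a3 were called higher and Mpo, Prss57 and Cst7 lower, beside 29.9% and 28.8% of all tested genes. Elane passed the filter there only through the wild-type group, so its call is a description. The members' share is thus to be read against a background in which 49.4% of tested genes were called in either direction. The wild-type libraries did not overlap the controls for 4 of the 7 tested members, nor for Elane, where 56.6% of all tested genes did not overlap. The median log2 difference was -0.46 over the 7 members and 0.00 over all tested genes, and it was 0.11 over the 8 members tested without the first wild-type library. In bulk RNA, fewer cells of a type and less RNA per cell cannot be told apart.

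**Figure D1:**
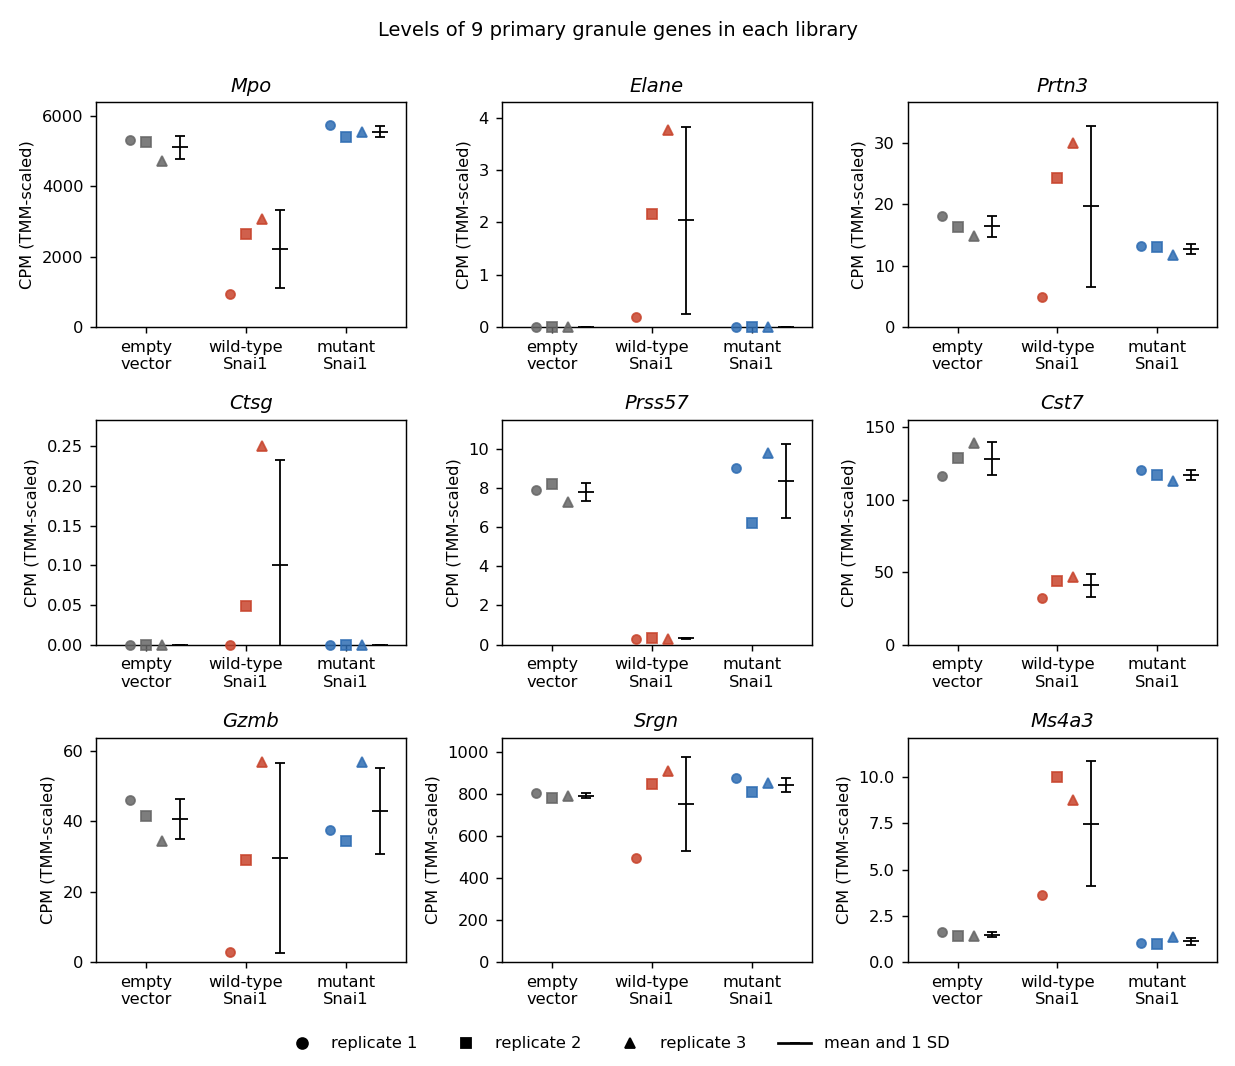
Level of each of the 9 granule genes in CPM (y axis, linear from 0) in every library, with 1 point per library and the 3 groups side by side; short bars give the mean and 1 SD. The wild-type Snai1 libraries lay below all others for Mpo, Prss57 and Cst7 and above all others for Ms4a3 and Elane, and the first wild-type library was at 943 CPM of Mpo against 2653 and 3058 in the other two.

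Mpo, the enzyme behind the peroxidase stain of these granules, was the most abundant member. Per kilobase of counted length it reached 2008 ± 129 CPM (SD, n = 3) with the empty vector, followed by Srgn at 847 ± 12.4, Cst7 at 130 ± 11.6, Gzmb at 28.6 ± 4.09, Prtn3 at 16.8 ± 1.74, Prss57 at 2.90 ± 0.178 and Ms4a3 at 1.46 ± 0.144. The ranges of neighbours in this order did not overlap, and Elane and Ctsg were at 0. The order was the same with the mutant, from 2183 ± 65.3 for Mpo to 1.10 ± 0.183 for Ms4a3, again with no overlap between neighbours.

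With wild-type Snai1 the order changed at its lower end. Mpo (871 ± 441 CPM per kilobase) and Srgn (804 ± 238) overlapped, as did Cst7 (41.4 ± 7.89), Gzmb (20.8 ± 19.0) and Prtn3 (20.2 ± 13.5) with the neighbour in the order. Ms4a3 (7.38 ± 3.33) and Elane (2.22 ± 1.94) followed, each overlapping the member above it. Prss57 (0.117 ± 0.00917) dropped below Elane in every library, and its range overlapped that of Ctsg (0.0997 ± 0.133).

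Mpo (gene 17523, chr11:87793784-87804412 on the forward strand of GRCm38, 14 exons) was measured at 5329, 5273 and 4734 CPM with the empty vector. The wild-type group had 943, 2653 and 3058 CPM of Mpo, and the mutant group 5731, 5400 and 5539 CPM. All 3 wild-type libraries lay below all 6 others, and the first was the lowest. Mpo fell by 1.20 on the log2 scale (SE 0.36, 95% interval -2.04 to -0.37, adjusted p = 0.0247 by edgeR's quasi-likelihood test), a 2.30-fold decrease. Leaving out the first wild-type library gave -0.84 (SE 0.06, adjusted p = 4.24e-08). The call was lost when all genes were tested without a filter on low counts (log2 -1.22, adjusted p = 0.0620) and when the second empty vector library was left out (-1.18, adjusted p = 0.0549). Against the mutant, Mpo was lower by a log2 difference of -1.33 (SE 0.36, adjusted p = 0.0171), or -0.96 without the first wild-type library (adjusted p = 1.05e-08). A noncoding gene of the RefSeq annotation, Gm34064, overlaps Mpo and has no row of its own in the table.

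The peroxidase relatives of Mpo were at or near 0. None of the 6 listed had enough counts to be tested. Lpo, lactoperoxidase, had 17, 18 and 19 counts over the 3 libraries with empty vector, wild-type and mutant Snai1, and Epx, the eosinophil peroxidase, had 2, 1 and 2. Mpo was the sole peroxidase of this list with more than a trace of RNA in these cells.

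Of the serine protease genes, Prtn3 and Elane lie side by side on chromosome 10, 3138 bases apart, and both were at their highest in the second and the third wild-type library. Prtn3, which encodes proteinase 3 (gene 19152, chr10:79879667-79883174, forward strand, 5 exons), stood at 18.1, 16.2 and 14.8 CPM with the empty vector. Its level with wild-type Snai1 was 4.88, 24.2 and 29.9 CPM, so that the first library was below every control and the other two were above every control. The log2 difference of 0.26 did not pass the test (SE 0.51, 95% interval -0.91 to 1.43, adjusted p = 0.692). Without the first wild-type library it passed, at 0.72 (SE 0.11, adjusted p = 2.28e-05), and without the third wild-type library it was -0.16. The wild-type coefficient of variation was 66.7%, against 10.3% with the empty vector. Against the mutant, at 13.2, 13.1 and 11.7 CPM, the difference was 0.64 (adjusted p = 0.345), or 1.09 without the first wild-type library (SE 0.11, adjusted p = 3.19e-07).

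Elane, which encodes neutrophil elastase (gene 50701, chr10:79886312-79888216, forward strand, 5 exons), had 0 counts in each of the 3 empty vector and 3 mutant libraries. It had 4, 44 and 75 counts with wild-type Snai1, or 0.199, 2.15 and 3.76 CPM. Each wild-type library was above all 6 others, with the first again the lowest. Set against a floor of 3 counts in each empty vector library, the wild-type mean of 2.04 ± 1.78 CPM (SD, n = 3) was at least 13.1-fold higher, or 19.0-fold without the first library. A two-sided exact permutation test gave p = 0.1, the smallest that 3 libraries against 3 can give. Tested with all genes and no filter, its adjusted p by edgeR was 0.155. With its lowest library, the first, left out, Elane passed the filter, and only through the wild-type group. It also passed, through that group, when each empty vector or mutant library was left out in turn. Elane was then called higher against the empty vector without each mutant library, and against the mutant without each empty vector library. These calls are descriptions too.

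Ctsg, the cathepsin G gene (gene 13035, chr14:56099885-56102574, reverse strand, 5 exons), had 0 counts in the empty vector and mutant libraries and 0, 1 and 5 counts with wild-type Snai1. The wild-type mean of 0.0999 CPM lay under the floor of 3 counts per library, 0.156 CPM. A difference was not detectable at this depth, and the exact permutation p was 0.4. With all 9 libraries, none of Elane, Prtn3 and Ctsg, the classical serine proteases of this granule, was called.

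With wild-type Snai1, Mpo lay below the controls and Elane above them in every library, while Prtn3 lay on both sides. The stretches before the start sites of Prtn3, Elane and Mpo are shown because these 3 textbook promyelocyte genes differed in this way. Each is 250 bases from RefSeq's GRCm38.p6 annotation, 5′ to 3′ on the gene's own strand, which is the forward strand in each case: Prtn3 at chr10:79879417-79879666, Elane at chr10:79886062-79886311 and Mpo at chr11:87793534-87793783. Capitals mark GAGGAA, a core that the myeloid factor PU.1 can bind, and AACNG, the core that Myb binds, on either strand.
Prtn3: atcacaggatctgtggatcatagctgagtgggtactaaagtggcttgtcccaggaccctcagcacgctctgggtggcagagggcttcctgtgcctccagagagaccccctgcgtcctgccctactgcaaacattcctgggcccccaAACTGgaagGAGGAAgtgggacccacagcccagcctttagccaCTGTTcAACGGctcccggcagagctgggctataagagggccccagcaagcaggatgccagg
Elane: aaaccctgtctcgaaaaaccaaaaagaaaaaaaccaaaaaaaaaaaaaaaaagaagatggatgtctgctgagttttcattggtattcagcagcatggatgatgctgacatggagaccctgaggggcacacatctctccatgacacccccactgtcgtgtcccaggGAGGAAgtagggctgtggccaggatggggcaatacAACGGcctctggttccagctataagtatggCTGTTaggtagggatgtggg
Mpo: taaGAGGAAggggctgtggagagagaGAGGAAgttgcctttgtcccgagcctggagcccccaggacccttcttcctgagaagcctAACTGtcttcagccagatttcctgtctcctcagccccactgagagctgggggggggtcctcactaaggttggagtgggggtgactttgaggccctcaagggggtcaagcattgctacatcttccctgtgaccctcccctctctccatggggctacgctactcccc
The Prtn3 and Elane stretches are alike in layout: GAGGAA begins 95 bases before the start of Prtn3 and 85 before that of Elane, and AACGG follows at 55 and 50 bases before the start. Among the member windows, those of Prtn3 and Elane alone held both GAGGAA and AACGG, a pair found in 5.03% of all 32851 RefSeq promoter windows of the same 300 bases (250 before and 50 after a start). AACGG is narrower than the marked AACNG and is a string that both windows share. The 5.03% is a description, and enrichment was not tested. The Mpo window held GAGGAA at 247 and 224 bases before its start and AACTG at 165, and no AACGG. Searched on both strands over all windows, GAGGAA was in 28.3%, AACNG in 80.3% and AACGG, which is also an AACNG match, in 17.4%.

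Windows were on file for 8 of the 9 members, 9 windows in all since Srgn has a pair. The E-box CAGGTG, which Snail proteins bind, was found in the Ctsg window alone, as CACCTG, and in 20.2% of all windows. A C/EBP-like TTNNGNAA was in the windows of Cst7, Srgn and Ms4a3 (40.7% of all windows), the RUNX core TGTGGT in those of Cst7, Srgn, Ctsg and Gzmb (16.8%), and the GFI1 core AAATCA in none (14.0%). A match is a string of letters and not a measured binding site.

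Prss57, which encodes neutrophil serine protease 4 (gene 73106, chr10:79781474-79794684, reverse strand, 5 exons), showed the steepest fall of the members and the most even one. Empty vector libraries held 7.92, 8.24 and 7.30 CPM, wild-type Snai1 libraries 0.299, 0.343 and 0.301 CPM (6, 7 and 6 counts), and mutant libraries 9.07, 6.24 and 9.81 CPM. The 3 wild-type libraries lay far below all others and close together, the first included. Prss57 fell by 4.61 on the log2 scale (SE 0.25, 95% interval -5.16 to -4.06, adjusted p = 3.25e-07), a 24.4-fold decrease. Without the first wild-type library it fell by 4.58. Against the mutant the difference was -4.71 (SE 0.25, adjusted p = 3.01e-07). Prss57 overlaps Palm, which was far more abundant at 109, 63.7 and 101 CPM in the 3 groups, and Fstl3, which was near 0, so reads in shared stretches could count for either gene if strand was not used. Prss57 and the Elane and Prtn3 pair lie within 100 kb of each other, with Prss57 below and Elane above every control in all 3 wild-type libraries.

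Gzmb, the granzyme B gene (gene 14939, chr14:56258836-56262334, reverse strand, 5 exons), encodes a protease best known from the granules of cytotoxic lymphocytes and also made by mast cells. Gzmb was at 45.9, 41.4 and 34.4 CPM in the controls. Wild-type libraries held 2.79, 29.1 and 56.7 CPM, and mutant libraries 37.4, 34.4 and 56.8 CPM. The first wild-type library was far below all others, the second was below the controls and the third was at the top of the mutant range. The log2 difference of -0.46 did not pass the test (SE 0.79, 95% interval -2.32 to 1.40, adjusted p = 0.658), and without the first wild-type library it was 0.08 (adjusted p = 0.878). Against the mutant it was -0.54 (adjusted p = 0.606). Markers of cytotoxic lymphocytes summed to 204 to 216 CPM with the empty vector, nearly all of it Nkg7, to 188 to 196 with wild-type Snai1 and to 224 to 238 with the mutant. Of the 13 markers, 8, 6 and 7 were detected with empty vector, wild-type and mutant Snai1. Gzma, Ncr1, Klrk1 and Cd3e were at 0 counts in all 3 groups, while Prf1, also a marker, rose to 14.6 CPM. Klrb1c, Klrd1 and Tbx21, named after their values were seen, had empty vector means of 0.333, 0.0179 and 0.0676 CPM. The part of cytotoxic lymphocytes in the Gzmb level was not tested.

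Most relatives of Gzmb were too low to be tested. Of 27 listed genes of the granzyme, chymase and tryptase families and other granule or secreted proteases, 6 were tested. Gzmm, a granzyme gene, and Cma1, a chymase gene, were not called (log2 differences -0.59 and 1.27, adjusted p = 0.233 and 0.0649). Cma1 passed without the first wild-type library (1.43, adjusted p = 0.0396), and both were named after their values were seen. Of the other 4, which belong to other families, 3 were called higher with wild-type Snai1 (Prf1, Plau and Prss23) and 1 lower (Prss16). That is 3 higher and 1 lower of the 6 tested, beside 25.2% and 24.3% of all tested genes. Prf1, the gene of the pore-forming protein perforin, rose from 4.75 to 14.6 CPM (log2 difference 1.62, adjusted p = 6.89e-06). Prss23 had 0 counts with the empty vector and was at least 41.7-fold higher, at 6.49 ± 2.73 CPM (SD, n = 3), and Plau, the urokinase gene, was at least 5.72-fold higher. Both passed the filter only through the wild-type group. Prss16, a thymic protease gene, fell by 0.90.

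Cst7, which encodes cystatin F (gene 13011, chr2:150570415-150578944, forward strand, 4 exons), an inhibitor of cathepsin C and other cysteine proteases, fell like Prss57 in all 3 wild-type libraries. Its level was 117, 129 and 139 CPM with the empty vector. It was 32.0, 43.7 and 46.7 CPM in the wild-type group and 120, 117 and 113 CPM in the mutant group. All 3 wild-type libraries were below all others by a wide gap. The log2 difference of Cst7 was -1.65 (SE 0.13, 95% interval -1.93 to -1.37, adjusted p = 4.18e-06), a 3.14-fold decrease. With the second and the third wild-type library alone Cst7 fell by 1.50 (adjusted p = 5.04e-11). Against the mutant it was lower by a log2 difference of -1.52 (SE 0.12, adjusted p = 7.52e-06).

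Cst7 was an exception beside a list of genes of protease processing and inhibition, which also holds the chaperone genes Canx, Calr and Pdia3. Of 18 tested genes of that list, 17 were called higher with wild-type Snai1 and 0 lower, beside 25.2% and 24.3% of all tested genes. The chaperone genes were among those called higher. The median log2 difference was 0.90, and without the first wild-type library 15 were called higher, beside 29.9% of all tested genes. Ctsc, the cathepsin C that Cst7 inhibits and that activates Elane, Prtn3 and Ctsg, rose from 44.2 to 84.5 CPM (log2 difference 0.94, SE 0.07, adjusted p = 2.51e-06). Serpinb10, an intracellular serpin gene, was called higher (adjusted p = 5.42e-05), at 17.9 ± 10.3 CPM (SD, n = 3) against 0.0694 CPM with the empty vector. That control level lies under the floor of 3 counts per library, and the gene passed the filter only through the wild-type group. Cstb, the cystatin B gene, rose by 0.93 and Lgmn, the legumain gene, by 1.23.

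Srgn, the serglycin gene (gene 19073, chr10:62493833-62527445, reverse strand, 3 exons), was the second most abundant member and the steadiest of them in the empty vector group. Srgn stood at 807, 784 and 792 CPM in the controls. The wild-type libraries held 499, 849 and 913 CPM, and the mutant libraries 877, 810 and 852 CPM. The first wild-type library was below all others, and the other two were above all 3 controls. The log2 difference of -0.08 did not pass the test (SE 0.18, 95% interval -0.49 to 0.34, adjusted p = 0.756). The sign turned when that library was left out, with a rise of 0.15 that passed the test (SE 0.05, adjusted p = 0.0174). Against the mutant the difference was -0.17 (adjusted p = 0.485), or 0.06 without that library (adjusted p = 0.346). A noncoding RefSeq gene, Gm51804, overlaps Srgn and has no row of its own in the table.

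The sugar chains that load serglycin are built by enzymes of glycosaminoglycan synthesis, of which 28 were tested. With wild-type Snai1, 16 were called higher and 2 lower, beside 25.2% and 24.3% of all tested genes, with a median log2 difference of 0.34. Chsy3, a chondroitin synthase gene, rose from 0.898 to 16.2 CPM (log2 difference 4.17, SE 0.30, adjusted p = 2.56e-06), while its relative Chsy1 fell from 179 to 106 CPM. Papss2, which makes the sulfate donor, rose by 0.84, and Extl3, a heparan sulfate enzyme gene, fell by 0.88.

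Ms4a3, a membrane protein gene used to mark granulocyte and monocyte progenitors (gene 170813, chr19:11629499-11640851, reverse strand, 7 exons), was the member that rose with all libraries in the test. It was low with the empty vector, at 1.65, 1.40 and 1.40 CPM, and with the mutant, at 1.02, 0.998 and 1.33 CPM. With wild-type Snai1 its level was 3.64, 9.99 and 8.78 CPM. All 3 wild-type libraries lay above all others, the first again lowest of its group. Ms4a3 rose by 2.33 on the log2 scale (SE 0.35, 95% interval 1.56 to 3.11, adjusted p = 0.000352), a 5.03-fold increase, and by 2.66 without the first wild-type library (adjusted p = 1.90e-09). Against the mutant the difference was 2.74 (SE 0.36, adjusted p = 0.000164). Of its 17 listed family members 2 were tested, Ms4a6d and Ms4a6c. Ms4a6d, 24695 bases from Ms4a3, rose from 0.740 to 6.20 CPM, with 11.0, 3.33 and 4.26 CPM in the wild-type libraries, the first highest. Its log2 difference was 3.06, or 2.35 without that library (adjusted p = 9.38e-07). Ms4a6c had 0 counts with the empty vector and the mutant and passed the filter only through the wild-type group, at least 8.86-fold higher than the control.

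**Figure D2:**
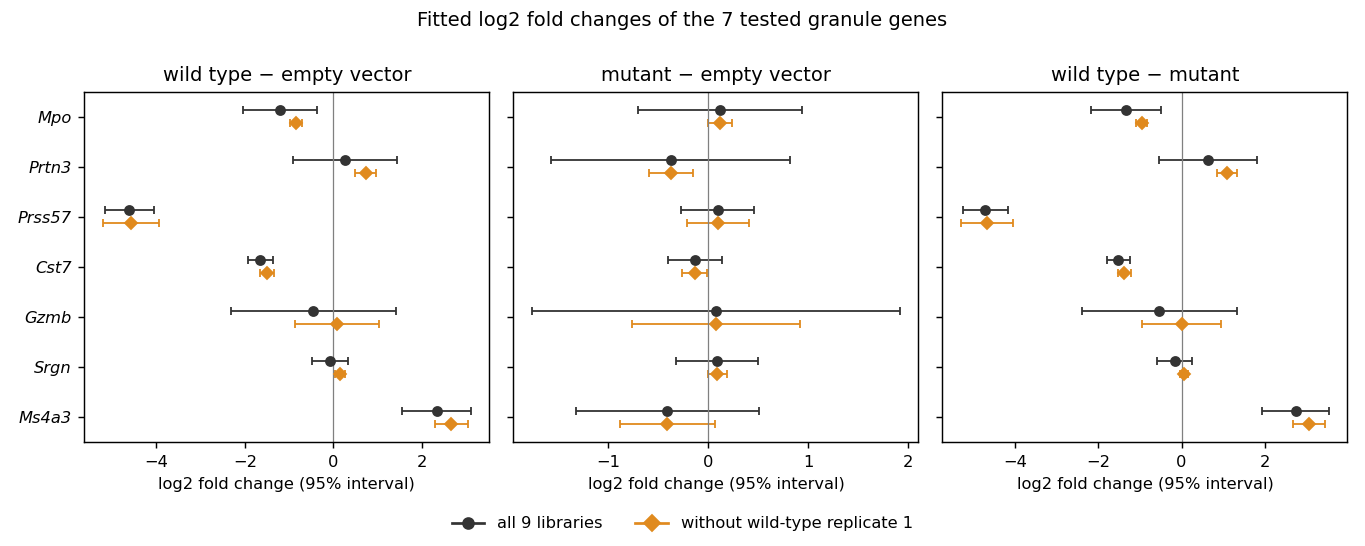
Log2 differences of the 7 tested members (x axis) with their 95% intervals for wild-type Snai1 against empty vector, mutant against empty vector and wild type against mutant, with and without the first wild-type library. The intervals of Mpo, Prss57, Cst7 and Ms4a3 in the first comparison excluded 0, and those of the mutant against the empty vector all included 0 with all libraries. Without the first wild-type library, the mutant intervals of Mpo, Prtn3 and Cst7 excluded 0, and none of these members passed adjustment.

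How far the members differed between the first wild-type library and the other two of its group varied by gene. The mean of the other two libraries was 15.4 times the first for Gzmb, 14.8 times for Elane, 5.54 times for Prtn3, 3.03 times for Mpo, 2.58 times for Ms4a3 and 1.77 times for Srgn. For Cst7 it was 1.41 times and for Prss57 1.08 times. Ranked among all tested genes by this difference, Gzmb, Prtn3, Mpo and Ms4a3 stood at percentiles 100.0, 99.8, 99.0 and 98.2, whereas Prss57 stood at 59.4. The direction was the same for all 9 members, Ctsg at 0, 1 and 5 counts included, with the first library below the mean of the other two.

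**Figure D3:**
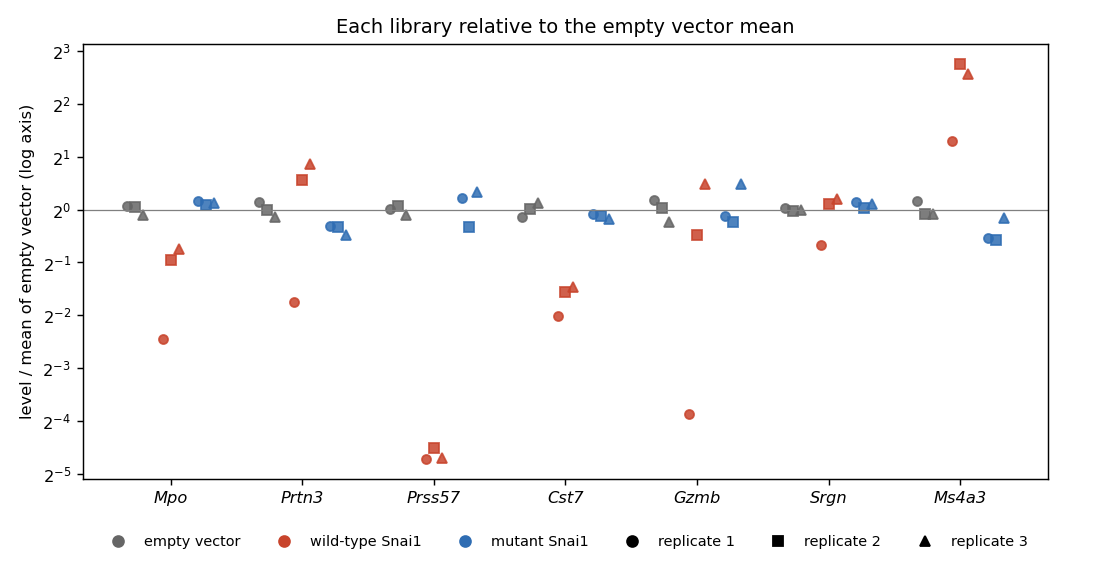
Level of each tested member in every library, divided by its empty vector mean (y axis, log scale). The 3 wild-type libraries coincided for Prss57 at 0.0382, 0.0438 and 0.0385 of the control mean and spread apart for Prtn3, at 0.298, 1.48 and 1.83.

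Summed markers of more mature cells differed between the groups and among the wild-type libraries. Late neutrophil markers summed to 4.82 to 5.74 CPM with the empty vector and 5.34 to 6.67 with the mutant, and to 84.4, 143 and 208 CPM in the 3 wild-type libraries, the first lowest. Monocyte and macrophage markers summed to 63.3 to 68.2, to 66.2 to 82.6 and to 444, 698 and 883 CPM. The monocyte sum was largely Ccr2, a chemokine receptor gene, at 47.1 CPM with the empty vector and 195, 494 and 542 CPM in the wild-type libraries. Of 8 monocyte markers tested, 7 were called higher and 1 lower. Adgre1, Cd14 and F13a1 passed the filter only through the wild-type group, so this count is a description. Fcgr1, named after its values were seen, had means of 4.63 CPM with the empty vector and 2.43 with wild-type Snai1. Ly86 and C1qa were at 0 counts with wild-type Snai1. The shares of all tested genes are given with the neutrophil markers below. The neutrophil sum was largely Lcn2, at 0.224 CPM with the empty vector and 53.5, 84.7 and 111 CPM in the wild-type libraries. Of 9 neutrophil markers tested, 6 were called higher and 1 lower, beside 25.2% and 24.3% of all tested genes. Among the markers tested, Lcn2, Mmp8, Fpr1 and Fpr2 passed the filter only through the wild-type group, so this neutrophil count is a description. Mmp8, Fpr1 and Fpr2 had 0 counts with the empty vector. Ltf, Cxcr2 and Padi4, named after their values were seen, had means of 1.37, 0.623 and 0.698 CPM with the empty vector. With wild-type Snai1 they were at 1.21, 0.413 and 0.166 CPM. The first wild-type library was the lowest of its group for 4 of 13 detected monocyte markers and 7 of 15 detected neutrophil markers. Cd14 stood at 32.4, 28.7 and 47.0 CPM and Mpeg1 at 103, 91.5 and 165 CPM, with the second library lowest. Ly6g, Retnlg, Chil3 and Stfa2l1 were at 0 counts in all groups, and 11 of the 19 neutrophil markers were at 0 with the empty vector against 4 with wild-type Snai1. Ngp, S100a8, S100a9 and Mmp25, at 0 with the empty vector, had wild-type means of 0.0167 to 0.132 CPM, under a floor of 3 counts per library. Blood progenitor markers summed to 10159 CPM in the first wild-type library and to 8664 and 8511 in the others. Cd34 alone stood at 4096, 2896 and 2830 CPM in these libraries. The first was the highest of its group for 6 of the 10 progenitor markers and the lowest for 3, Lyl1, Cd48 and Gata2. The part of these shifts in the granule genes' levels was not tested.

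Other marker sums differed by smaller factors. Mast cell and basophil markers, led by Cpa3 and Kit, summed to 6556 to 7018 CPM with the empty vector, 7126 to 7665 with wild-type Snai1 and 6847 to 7053 with the mutant, with Mcpt8 at 0 in each group. Eosinophil markers summed to 56.9 to 63.6, 24.1 to 29.8 and 48.5 to 51.8 CPM, and erythroid markers to 17.4 to 18.5, 10.9 to 15.4 and 17.9 to 20.8 CPM. Their part in the members' levels was not tested.

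The mutant bears on whether the granule genes respond to Snai1 when its contact with Lsd1 is weakened. Against the empty vector, 0 of the 7 tested members were called in either direction by edgeR, and 0 had an unadjusted p under 0.05, where 4.83% of all tested genes had one. DESeq2 and limma-voom also called 0. Of all tested genes, 0.00801% were called higher (1 gene) and 0.0% lower. The mutant and wild-type groups were compared with the same 3 empty vector libraries. Among members, 95% intervals of the log2 difference were -0.27 to 0.46 for Prss57, -0.40 to 0.14 for Cst7, -0.32 to 0.51 for Srgn and -0.70 to 0.94 for Mpo. They were wider for Prtn3 (-1.57 to 0.82), Ms4a3 (-1.32 to 0.51) and Gzmb (-1.76 to 1.92). These intervals exclude changes of the size seen with wild-type Snai1 for Prss57, Cst7, Mpo and Ms4a3.

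Smaller shifts with the mutant were visible in the library values. The mutant libraries did not overlap the empty vector libraries for 4 of the 7 tested members, where 17.6% of all tested genes did not overlap. Mpo and Srgn were the higher of these, with 5557 ± 166 against 5112 ± 329 CPM and 846 ± 33.7 against 794 ± 11.6 CPM (SD, n = 3). Prtn3 and Ms4a3 were the lower, with 12.7 ± 0.829 against 16.4 ± 1.69 CPM and 1.12 ± 0.185 against 1.48 ± 0.146 CPM. For Prtn3, a fit of the empty vector and mutant libraries alone gave a log2 difference of -0.37 (SE 0.10, unadjusted p = 0.00191 by edgeR), which did not pass adjustment (0.127). In the main fit of all 9 libraries the same difference of -0.37 had an SE of 0.52 and an unadjusted p of 0.494 by edgeR. Without the first wild-type library, 0 of 8 tested members were called, beside 0.491% of all tested genes.

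Set directly against the mutant, which is the test of whether both forms of Snai1 differ, wild-type Snai1 gave 1 member called higher (Ms4a3) and 3 called lower (Mpo, Prss57 and Cst7) of 7, beside 24.5% and 23.4% of all tested genes. Without the first wild-type library, Elane, Prtn3 and Ms4a3 were called higher and Mpo, Prss57 and Cst7 lower, beside 29.7% and 28.2% of all tested genes, with Elane again in the test only through the wild-type group. The 7 members had a median log2 difference of -0.54, against -0.01 over all tested genes, and it was 0.028 over the 8 tested without the first wild-type library. Groups did not overlap for Mpo, Elane, Prss57, Cst7 and Ms4a3, 4 of them tested, where 55.8% of all tested genes did not overlap.

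Transcription factors known to act on granule genes were split. Of 26 tested, 5 were called higher and 10 lower with wild-type Snai1, beside 25.2% and 24.3% of all tested genes, with a median log2 difference of -0.14. Without the first wild-type library 7 were called higher and 12 lower, beside 29.9% and 28.8% of all tested genes. Cebpg fell from 286 to 120 CPM (log2 difference -1.25, SE 0.06, adjusted p = 1.31e-07). Runx1, a core-binding factor gene, fell from 164 to 84.6 CPM, Cbfa2t3, a corepressor gene, from 429 to 235, and Gata1, an erythroid and mast cell factor, from 15.0 to 3.22. Further factors were chosen after their values were seen, because they are the classical regulators of Mpo, Elane and Prtn3. Cebpa, which starts the granulocyte program, fell from 6.49 to 2.46 CPM (adjusted p = 0.0265), and Myb fell from 882 to 556. Cebpe, which acts later in granulocyte maturation, rose from 1.23 to 5.998 CPM, Cebpb from 0.570 to 5.99 and Cebpd from 3.69 to 10.7. Spi1, the PU.1 gene, Gfi1 and Irf8 were not called, with log2 differences of -0.20, -0.29 and -0.20. Gfi1 fell by 0.72 when the first wild-type library was left out (adjusted p = 0.000811). With the mutant, 0 of the 26 were called.

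Other genes of primary granules and of granulocyte and monocyte progenitors rose more often than they fell. Of 26 tested, 15 were called higher and 5 lower, beside 25.2% and 24.3% of all tested genes, with a median log2 difference of 0.42. Lyz2, the lysozyme gene, rose from 11.6 to 406 ± 96.5 CPM (SD, n = 3; log2 difference 5.13, SE 0.23, adjusted p = 3.71e-07). Cd68, which encodes a lysosomal membrane protein, rose from 10.1 to 51.3 CPM and Ctsd, the cathepsin D gene, from 1088 to 3358. Igfbp4 fell from 967 to 506 CPM. Ly6c2, a gene chosen after its values were seen, had 0 counts with the empty vector and was at least 27.6-fold higher, at 4.29 ± 2.89 CPM (SD, n = 3). It is among the 15 called higher, though it passed the filter with no counts from the empty vector group. Genes for granule traffic and for inherited neutropenias were split, with 9 called higher and 11 lower of 35, beside the same 25.2% and 24.3%. Nbeal2, needed for normal granules, fell from 364 to 202 CPM and Sytl1, a docking protein gene, from 46.4 to 17.3, while Lyst, the Chediak-Higashi gene, rose from 30.9 to 62.0 and Gga2, a sorting adaptor gene, from 253 to 363. With the mutant, 0 genes were called in any of these lists.

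**Figure D4:**
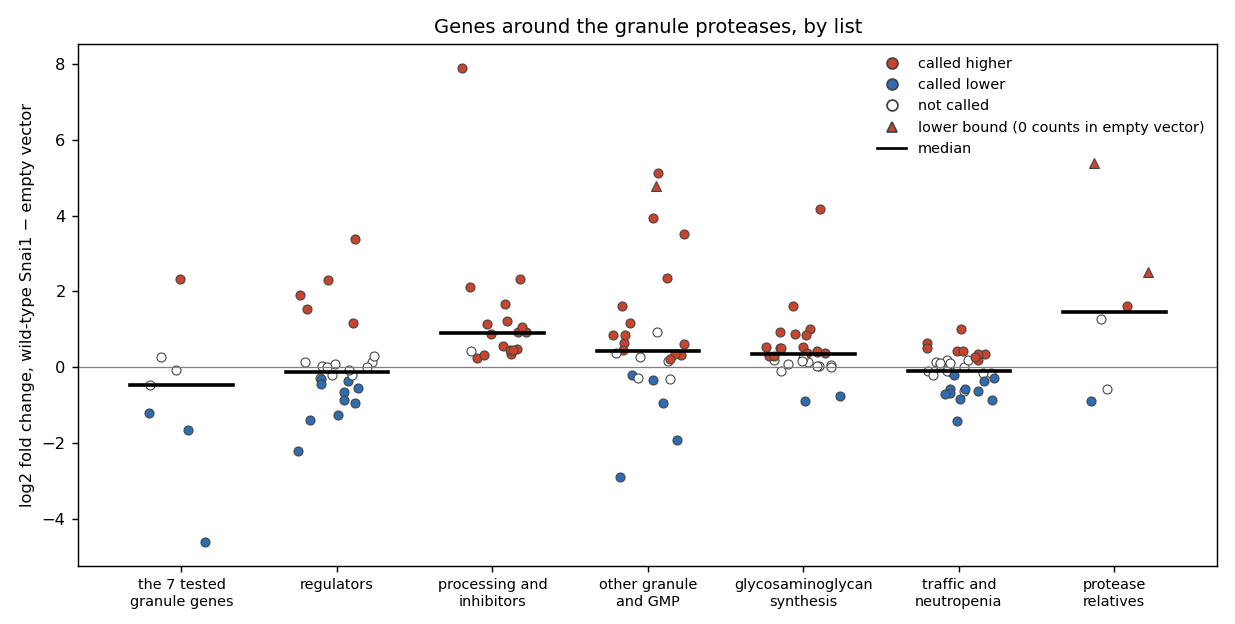
Log2 difference between wild-type Snai1 and the empty vector (y axis) for each tested gene of the granule genes and of 6 lists of related genes (x axis), filled where called, with triangles at the lower bound for genes at 0 counts in the control and a bar at the median. Protease processing and inhibitor genes lay above 0 with a median of 0.90, and the 7 granule genes ran from -4.61 for Prss57 to 2.33 for Ms4a3.

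Neighbouring genes within 100 kb of a member were examined to place the changes in their loci. Of 92 annotated neighbours 61 were in the table and 33 were tested, of which 5 were called higher and 8 lower with wild-type Snai1, where 25.2% and 24.3% of all tested genes were. In the locus of Prss57, Prtn3 and Elane on chromosome 10, Arid3a, an ARID-domain transcription factor gene, fell from 131 to 57.3 CPM (log2 difference -1.19, adjusted p = 3.33e-07). Palm, whose span overlaps Prss57, fell by 0.77. In the same locus Bsg, the basigin gene, rose by 0.50 and Grin3b, a glutamate receptor subunit gene, rose from 0.988 to 2.30 CPM (log2 difference 1.21). Next to Cst7, Acss1, a mitochondrial acetyl-CoA synthetase gene 39167 bases away, fell from 17.2 to 0.659 CPM (log2 difference -4.69, adjusted p = 2.25e-07), and Apmap fell by 0.30. In the Mpo locus Rnf43 fell by 1.54 and Mks1 by 0.40. Near Srgn, Kifbp rose by 0.50 and Vps26a by 0.26. No gene near Gzmb and 1 gene near Ctsg, not called, had enough counts to be tested.

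**Figure D5:**
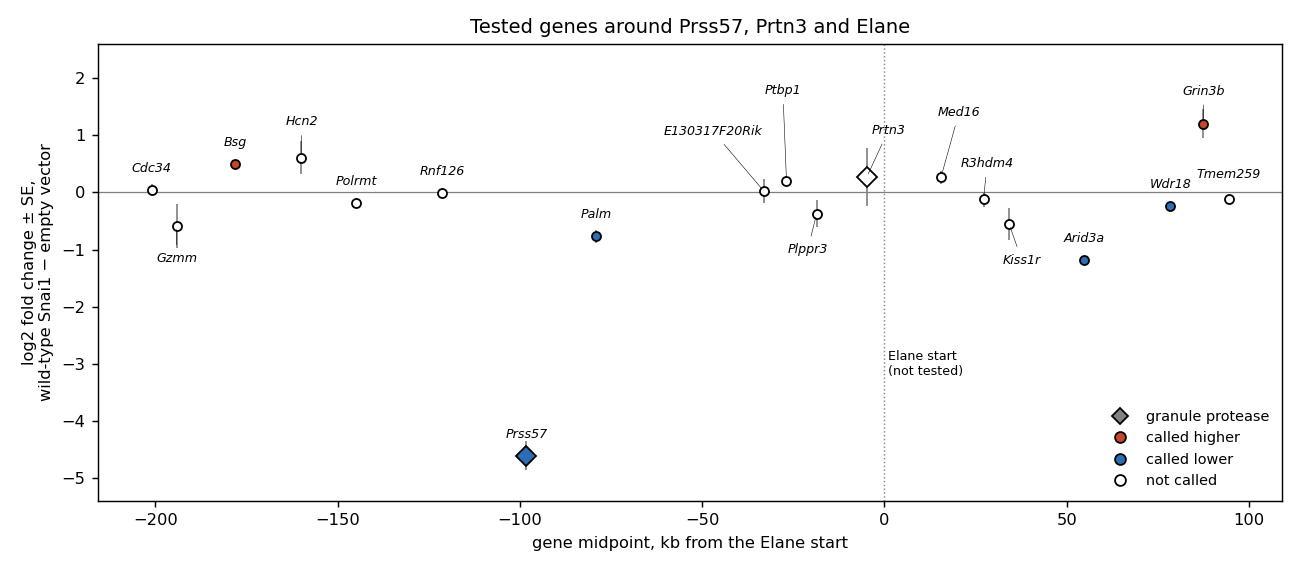
Log2 difference between wild-type Snai1 and the empty vector (y axis, bars give 1 SE) of the tested genes around Prss57, Prtn3 and Elane, by distance of the gene's midpoint from the Elane start in kilobases (x axis). Prss57 at -4.61 lay far below Palm at -0.77 and Arid3a at -1.19.

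Genes with the pattern most like each member were found by Pearson correlation of log2 CPM over the 9 libraries, among the 11605 genes whose mean reached 1 CPM. The points share the 3 groups and the first wild-type library, so the coefficients are descriptions. Mpo was most like Gpc3 (r = 0.996), whose level ran from 58.0 to 72.6 CPM outside the wild-type group and was 8.82, 26.5 and 35.9 within it, and Anp32a (0.993). Prss57 was most like Lztfl1 and Bcl2l14 (both 0.998), and Cst7 like 9030619P08Rik (0.999) and Sirt3 (0.997). Ms4a3 was nearest to Mfsd14a (0.993) and Acvrl1 (0.992), Srgn to Sf1 (0.991) and Hmga1 (0.982), Gzmb to Crlf3 (0.988) and Samd11 (0.982), and Prtn3 to Tbl2 (0.978) and Cenpa (0.976). Genes with r of at least 0.95 numbered 786 for Prss57, 756 for Cst7, 354 for Ms4a3, 183 for Mpo, 32 for Gzmb, 25 for Srgn and 9 for Prtn3.

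Among the members themselves, Prss57 and Cst7 ran closest (r = 0.973 over the 9 libraries), next to Gzmb and Srgn (0.957) and Mpo and Cst7 (0.907). Prtn3 stood at 0.843 with Srgn, 0.788 with Gzmb and -0.06 with Prss57. Over the 6 libraries without wild-type Snai1 these coefficients did not hold: Prss57 and Cst7 were at -0.27, Gzmb and Srgn at 0.29, Mpo and Cst7 at -0.82, Prtn3 and Srgn at -0.65. All points share the groups, and the first wild-type library was the lowest of the 9 for Mpo, Prtn3, Gzmb, Srgn and Cst7.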

How the data were processed

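The deposited file holds raw counts per gene for 9 libraries, which the authors made with featureCounts on mm10, per the submitters' processing notes. Those notes list edgeR 3.15.0 and limma 3.29.12 too. Aligner, annotation and strand setting are not given in the sources used here. Library kits, per the labels' protocols, were TruSeq stranded mRNA. Symbols, positions and promoter sequences came from RefSeq (GRCm38.p6).

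All 9 libraries entered 1 quasi-likelihood fit in edgeR 4.0.16 (R 4.3.3), after filterByExpr and TMM scaling, with 12484 genes tested and Benjamini-Hochberg adjustment over all of them. A gene was called at an adjusted p under 0.05. "Rose" and "fell" are used for called genes. The SE is the log2 difference divided by the square root of its F statistic, and the 95% interval uses the t quantile of that test. Levels are CPM on TMM-scaled totals, as mean ± SD. Libraries of 18332451 to 20860314 counts give a floor of 3 counts near 0.156 CPM. Floors cover counting error only. The 2 members below the filter got exact permutation tests over libraries. The fit was tested on simulated data.

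Members, gene lists and tests were chosen with earlier results of these data known. The text names the 9 members, Snai1, up to 3 neighbours per locus within 100 kb, up to 4 genes per list with the smallest adjusted p, and the 2 genes most like each member. Kdm1a, Lpo and Epx were added after their values were seen, and other genes outside the rule are marked where named. Alternatives were RLE and other scalings, filters, DESeq2 1.42.0, limma-voom 3.58.1, 2-group fits, the replicate number as a block and leaving out each library.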

Additional observations from a re-analysis of the deposited data

How the results depend on the processing

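Over the settings that used all 9 libraries or whole groups, the number of members called was the same in 47 of 48 recounts, the exception being 2 rather than 3 called lower against the empty vector with no filter on low counts, and 165 of 168 recomputed log2 differences had the same direction and the same side of the threshold. Mpo lost its call against the empty vector with no filter on low counts (-1.22, adjusted p = 0.0620), with adjusted p from 0.00156 to 0.0620 over these settings. Prtn3 against the empty vector was -0.10 with limma-voom. With the replicate number as a block, Gzmb with the mutant was -0.032. The block changed no other call of a member. It gave 5886 called genes for wild-type Snai1 against the empty vector, where the fit without it gave 6172. Replicate numbers did not pair the libraries: libraries of the same number correlated at -0.087 to 0.21 after removal of group means, and 4 of 9 were closest to their own number. Leaving out 1 library at a time, the count of members called higher with wild-type Snai1 ran from 1 to 4 against the empty vector and from 1 to 3 against the mutant, both highest without the first wild-type library, and the count called lower against the empty vector from 2 to 3. The ranges that crossed 0 were, against the empty vector, Prtn3 -0.16 to 0.72, Gzmb -1.34 to 0.078 and Srgn -0.23 to 0.15 with wild-type Snai1, and Prss57 -0.031 to 0.27 and Gzmb -0.18 to 0.22 with the mutant. Against the mutant, Srgn ran from -0.33 to 0.058. Genes called with the mutant numbered 1 to 62 over all settings, 62 of them without the first wild-type library. With 3 libraries a group and counts of 4 to 75, the depth limits Elane, and Ctsg was below the floor.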
